A study of Mus musculus with 6 samples.

Results

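The genes described here encode actin, myosin and the proteins that bind, cross-link and anchor actin filaments. A list of 37 symbols was matched to a deposited table of 14526 genes, 36 were in it, and the 32 with a mean of at least 10 over all libraries were tested among 12568 genes. The other 4 (Tpm2, Myl9, Pdlim1 and Lmod1) lay under that mean, and Myh10 was not analysed here. Actin filaments pulled by non-muscle myosin form the stress fibres of a spreading cell. In epithelial to mesenchymal transition (EMT), a cell trades its cortical actin belt for such fibres, and TGF-beta is a known inducer of smooth muscle actin, transgelin, calponin and tropomyosin. Many of these genes are targets of serum response factor (Srf), which is driven by the actin-sensing cofactors of the MRTF family when monomeric actin falls.

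RNA was sequenced from NMuMG, a mouse mammary epithelial cell line widely used to study EMT. 3 libraries came from cells given siRNA against Mnt, a repressor that pairs with Max (siMnt), and 3 from cells given a non-targeting control siRNA (siNTC). Both groups received TGF-beta, begun together with the siRNA 16 hours after plating, renewed on day 2 and continued to day 4, so the comparison asked how these genes differed when Mnt was depleted during TGF-beta treatment. No library without TGF-beta was used here. Whether replicates came from separate cultures is not stated in the labels, and the p-values therefore cover only the spread between these libraries, which may be technical. Knockdown was by siRNA and partial.

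Whole reads recovered from the normalised values, summed over the genes of the deposited table, came to between 22323050 and 42193292 per library. Values below are normalised read counts. Each log2 fold change is given as siMnt over siNTC, computed on log2(value + 1), which understates the change of low genes, and is followed by its standard error. Tests were made with limma, p was adjusted over the 12568 genes by the Benjamini-Hochberg method, and the threshold was 0.05. Mnt itself was at 613, 557 and 749 in siMnt against 1316, 896 and 1596 in siNTC, so the groups did not overlap (log2 fold change -0.96 ± 0.22, adjusted p = 0.0546 by limma; 0.00442 in a fit blocked on replicate number). The 8 general epithelial genes looked at were all in the table, and their summed value was 130656 to 142193 in siMnt and 119501 to 147681 in siNTC. Most of it came from Krt8 and Krt18 (log2 fold changes -0.09 and 0.06). The other fold changes had both signs, and none of the 8 passed without the block. Cdh1 was at 0.53 ± 0.21 (adjusted p = 0.179 by limma, and 0.0474 with the block). Krt19, Elf3 and Ocln were at 0.34, 0.38 and 0.46, Krt7 at -0.45 and Esrp1 at -0.94. Esrp1 was low, with values of 5.97 to 11 in siMnt and 12.2 to 26.5 in siNTC. Of 8 markers of differentiated smooth muscle 6 were in the table, with a sum of 7023 to 7439.8 in siMnt and 6622 to 8919 in siNTC and most of it from smoothelin (Smtn). The smooth muscle myosin Myh11 did not exceed 7.16 in any library. The others had fold changes of both signs. Synm was at 992, 598 and 698 in siMnt and at 268, 151 and 424 in siNTC, without overlap. Its log2 fold change was 1.53 ± 0.36 (adjusted p = 0.0573 by limma, and 0.00648 with the block). Ldb3 was at 30.3, 21.5 and 15.9 in siMnt and at 97.8, 107 and 17.4 in siNTC (-1.35 ± 0.66, adjusted p = 0.261). Smtn and Des had log2 fold changes of -0.23 and 0.34 and overlapping groups. For 5 of 7 myoepithelial and basal markers the sum was 4809.9 to 5510 in siMnt and 6772 to 7973 in siNTC, for 3 of 6 leukocyte markers 119 to 209 and 125 to 267, and for 2 of 4 endothelial markers 41.8 to 49 and 65.2 to 99.6. Most of each sum came from 1 gene, Lamb3, Cd68 and Cdh5 in that order. Of the other basal markers Krt5 had a mean of 43.8 in siMnt and 29.7 in siNTC, and Krt17 one of 0.758 and 23.8. The part of these markers in the results was not tested. The libraries were taken as paired by replicate number, a pairing read from these data and the titles. Fits with the number as a block are given where they change a call. On the first principal component siNTC replicate 3 lay between the siMnt libraries and the other 2 siNTC libraries, so results are also given without it. Leaving out a control library that lies near siMnt by itself tends to widen the difference between the groups. These fits are therefore no separate support for a change.

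Most contractile genes were lower in siMnt, but few passed the test. Of the 32 tested members 24 had a negative log2 fold change and 8 a positive one, with a median of -0.29 beside -0.01 over all tested genes. The median was -0.41 without siNTC replicate 3 and -0.14 without siNTC replicate 2. Calponin 1 (Cnn1) and the PDZ and LIM domain protein Pdlim7 fell and the related Pdlim2 rose. These 3 calls are 9.38% of the members, beside 3.93% of all tested genes (2.56% higher and 1.37% lower), with 12 members at an unadjusted p under 0.05, beside 23.4% of all tested genes. In the blocked fit 10 members passed, 8 lower and 2 higher (31.2%, beside 15.9% of all tested genes, 9.33% higher and 6.56% lower). Without siNTC replicate 3, 16 passed, 13 lower and 3 higher (50%, beside 16% of all tested genes, 9.51% higher and 6.5% lower). Of these 16 only Cnn1 and Pdlim2 also passed in another fit that left out 1 library. Without siMnt replicate 1, siMnt replicate 2 or siNTC replicate 1 limma called 0 members, and 10, 8 and 9 had an unadjusted p under 0.05, beside 14.4%, 15.3% and 17.4% of all tested genes. Over all genes it also called 0 in these fits. Without siMnt replicate 3 Cnn1 alone passed (beside 0.995% of all tested genes), and without siNTC replicate 2 Cnn1 and Pdlim2 passed (beside 1.73%). DESeq2 on the recovered reads called 11 members, those of the blocked fit and Actg2, beside 11.6% of all tested genes, and edgeR 3, beside 3.54%. Correcting for GC content and for transcript length gave 5, beside 8.27%, and 11 together with the block, beside 19.3%. Cnn1, Pdlim7 and Pdlim2 also passed with a pseudocount of 0.5 (3.77% of all tested genes called) or 5 (4.46%), with no filter on low values (3.77%), with a mean of at least 50 (2.87%), with upper quartile scaling (3.93%) and with TMM scaling (4.02%). With no trend in the prior variance Cnn1 and Pdlim2 passed, beside 2.43%. In 13 members every siMnt library was below every siNTC library and in 3 above. That is 16 of 32 without overlap, beside 31.5% of all tested genes (15.9% below and 15.6% above).

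**Figure D1:**
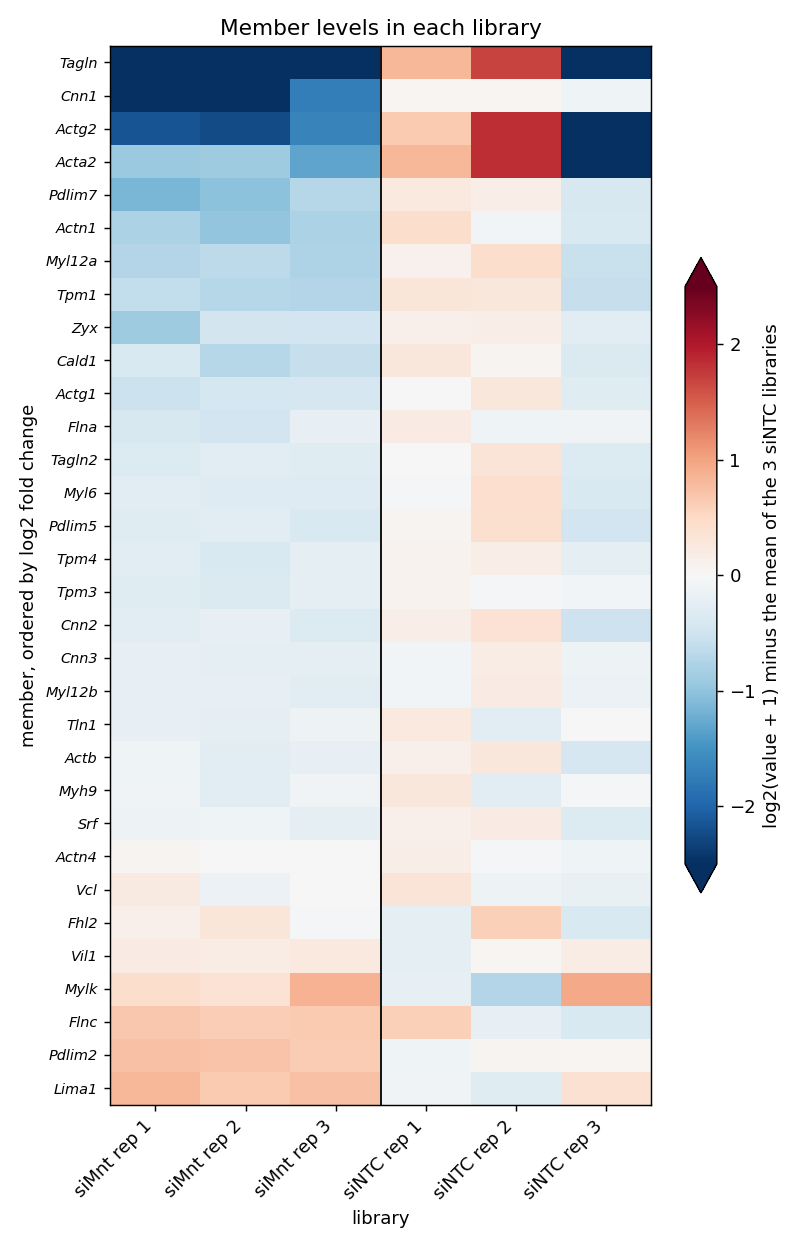
Level of each of the 32 tested members (rows) in each library (columns, siMnt left of siNTC), as log2(value + 1) minus the mean of the 3 siNTC libraries, with colours clipped at the ends of the bar. In siNTC replicate 3 Tagln, Acta2 and Actg2 are dark blue, below the other siNTC libraries, whereas Cnn1 is at 2072 there, close to 2314 and 2317 in the other siNTC libraries.

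The pooled level of the set followed the same split. The members' values summed to 455036, 427772 and 455039 in siMnt replicates 1, 2 and 3, against 634725, 619101 and 476208 in siNTC. As a share of all values in a library they made up 1.64%, 1.61% and 1.66% in siMnt and 2.24%, 2.26% and 1.75% in siNTC. siNTC replicate 3 thus lay nearer to siMnt than to its own group. In single members it was nearer on the log2 scale to the siMnt mean than to the mean of the other siNTC libraries in 25 of 32 (78.1%), beside 60.3% of all tested genes, and it was the lowest siNTC library in 25 of 32, beside 35.4%. The median difference of the members within replicate numbers 1, 2 and 3 was -0.37, -0.56 and -0.02, and 26, 25 and 16 of the 32 members were lower in siMnt, beside 51.6%, 50.4% and 50.8% of all tested genes. In 14 members siMnt was lower within every number and in 4 it was higher, beside 29.4% and 28.4% of all tested genes. In a bulk sample, fewer cells with a gene on and less RNA per cell cannot be told apart.

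Promoter windows of 250 bases before the start site were taken from RefSeq (GRCm38.p6) for 33 of the 37 members (none was held for Actb, Actg2, Tagln and Pdlim2). They were searched on both strands for the CArG box, the site that serum response factor binds. Only exact matches to CCWWWWWWGG, with W for A or T, were counted. The E-box CACGTG, the site of Mnt and Max, was searched for in the same way. A CArG box was present in 8 of 28 tested members with a window (28.6%), beside 1.45% of all tested genes with one. They were Actg1, Cnn2, Myl6, Vcl, Srf, Vil1, Fhl2 and Lima1. An E-box CACGTG was present in Actg1 and Myl12a, 2 of 28 (7.14%), beside 9.74% of all tested genes. The pair that fell, Cnn1 and Pdlim7, held neither sequence in this window. The windows are shown for these 2 and for 4 members with a CArG box, which is in capitals; the sequences run 5′ to 3′ towards the start site.
Cnn1 (chr9:22099003-22099252, plus strand): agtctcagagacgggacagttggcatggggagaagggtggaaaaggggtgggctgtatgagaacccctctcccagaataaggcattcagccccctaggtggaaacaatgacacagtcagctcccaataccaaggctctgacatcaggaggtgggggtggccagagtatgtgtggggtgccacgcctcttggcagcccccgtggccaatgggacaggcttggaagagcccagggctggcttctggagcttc
Pdlim7 (chr13:55513447-55513696, minus strand): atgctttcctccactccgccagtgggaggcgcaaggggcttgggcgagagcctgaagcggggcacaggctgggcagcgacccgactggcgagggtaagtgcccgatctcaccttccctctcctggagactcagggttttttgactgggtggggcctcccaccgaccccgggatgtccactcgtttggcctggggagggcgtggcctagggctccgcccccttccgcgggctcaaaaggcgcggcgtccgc
Cnn2 (chr10:79988350-79988599, plus strand): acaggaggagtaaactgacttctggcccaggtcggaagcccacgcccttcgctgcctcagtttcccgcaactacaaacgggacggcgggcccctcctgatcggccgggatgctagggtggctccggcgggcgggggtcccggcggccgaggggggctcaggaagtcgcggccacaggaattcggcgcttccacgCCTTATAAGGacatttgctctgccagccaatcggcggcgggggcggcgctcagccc
Lima1 (chr15:99820150-99820399, minus strand): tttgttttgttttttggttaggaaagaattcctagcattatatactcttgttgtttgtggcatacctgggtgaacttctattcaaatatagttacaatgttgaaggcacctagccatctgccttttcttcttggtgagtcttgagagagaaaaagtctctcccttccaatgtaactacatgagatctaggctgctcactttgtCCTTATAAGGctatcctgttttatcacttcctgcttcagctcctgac
Srf (chr17:46556163-46556412, minus strand): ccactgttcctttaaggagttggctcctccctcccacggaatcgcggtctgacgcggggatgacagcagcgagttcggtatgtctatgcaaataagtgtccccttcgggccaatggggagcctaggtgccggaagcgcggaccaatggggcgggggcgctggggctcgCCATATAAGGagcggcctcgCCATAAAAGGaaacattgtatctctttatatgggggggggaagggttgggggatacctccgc
Vil1 (chr1:74409134-74409383, plus strand): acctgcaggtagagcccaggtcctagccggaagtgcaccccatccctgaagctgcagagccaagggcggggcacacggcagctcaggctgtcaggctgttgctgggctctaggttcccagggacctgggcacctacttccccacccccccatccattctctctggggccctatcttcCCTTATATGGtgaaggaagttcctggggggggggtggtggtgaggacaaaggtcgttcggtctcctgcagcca
A match is a description of the sequence and not a measured site, and a window without one may hold a near match. Many members are known targets of serum response factor, so their share with a CArG box is no independent result. Of the members with a CArG box, Lima1 passed with the block, with a positive fold change, and without siNTC replicate 3 Actg1 and Cnn2 (negative) and Lima1 passed. Srf itself, with a pair of boxes, did not pass in either.

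The smooth muscle forms had the largest log2 fold changes, and Cnn1 was the one that passed. Cnn1, the calponin of smooth muscle, which binds actin and restrains actomyosin, was at 283, 379 and 669 in siMnt replicates 1, 2 and 3 and at 2314, 2317 and 2072 in siNTC. Every siMnt library was well below every siNTC library, including siNTC replicate 3. It fell to 18.7% of the siNTC level (log2 fold change -2.42 ± 0.28, adjusted p = 0.0155; 0.00236 with the block). The difference within replicate numbers 1, 2 and 3 was -3.03, -2.61 and -1.63 on the log2 scale. Leaving out siMnt replicate 1, siMnt replicate 2 or siNTC replicate 1 gave adjusted p = 0.0801, 0.102 and 0.0822, with log2 fold changes of -2.14, -2.35 and -2.39.

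Transgelin (Tagln), another actin-binding protein of smooth muscle and a common TGF-beta target, was at 78.9, 111 and 87 in siMnt and at 1331, 2414 and 132 in siNTC. The groups did not overlap, but siNTC replicate 3 held a small part of the level of the other siNTC libraries. The log2 fold change was -3.03 ± 0.91 (adjusted p = 0.0992 by limma; 0.0146 with the block), and without siNTC replicate 3 it was -4.28 (adjusted p = 0.000288). Within replicate numbers 1, 2 and 3 the difference was -4.06, -4.43 and -0.59.

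The smooth muscle actins Acta2 (alpha) and Actg2 (gamma) showed the same library pattern at low levels. Acta2 was at 45.4, 46.5 and 34.3 in siMnt and at 156, 315 and 12.9 in siNTC, so siNTC replicate 3 was the lowest library and the groups overlapped. Actg2 was at 7.57, 7.16 and 11 in siMnt and at 59.4, 136 and 5.81 in siNTC, again with siNTC replicate 3 lowest. Neither passed by limma (log2 fold change -1.05 ± 0.99, adjusted p = 0.56 for Acta2 and -2.02 ± 0.97, adjusted p = 0.254 for Actg2), with or without the block. DESeq2 on all 6 libraries called Actg2 (-2.96, adjusted p = 0.0112) and not Acta2 (-1.93, adjusted p = 0.255). Without siNTC replicate 3 both passed, with log2 fold changes of -2.38 (adjusted p = 0.00346) and -3.27 (adjusted p = 0.00303). Without siNTC replicate 2 the values were -0.13 (adjusted p = 0.946) and -1.1 (adjusted p = 0.48), and without siNTC replicate 1 Acta2 was at -0.63 (adjusted p = 0.794). These values rest on few reads: Actg2 had 7, 6 and 9 reads in siMnt and 68, 123 and 9 in siNTC. Striated muscle markers, which are no members, had a similar library pattern. Of 7 skeletal and cardiac markers 3 were in the table, with a sum of 412 to 623 in siMnt and 1094 to 3907 in siNTC, siNTC replicate 3 being the lowest at 1094. Skeletal muscle actin, Acta1, was at 62.7, 68 and 57.6 in siMnt and 498, 663 and 53 in siNTC (log2 fold change -2.04 ± 0.82, adjusted p = 0.188; 0.0385 with the block). Cardiac troponin T, Tnnt2, fell, with 429, 340.1 and 564 in siMnt against 2834, 3238 and 1039 in siNTC (adjusted p = 0.0313). Of that list Actc1, Ckm, Myod1 and Myog were not analysed here. The part of these genes in the members' values was not tested.

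**Figure D2:**
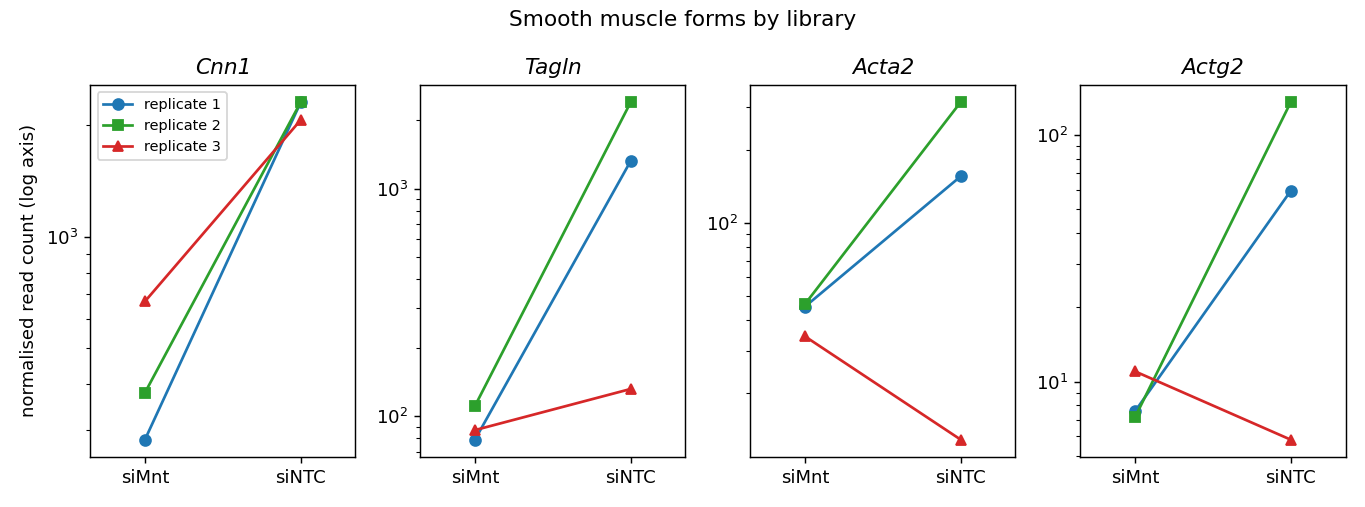
Normalised read count (log axis, a scale of its own in each panel) of Cnn1, Tagln, Acta2 and Actg2 in siMnt and siNTC, with lines joining libraries of the same replicate number. Cnn1 is lower in siMnt for all 3 numbers, whereas for replicate 3 Acta2 and Actg2 are higher in siMnt (34.3 against 12.9 and 11 against 5.81).

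Cnn1, Tagln and Acta2 were each set against a widely expressed relative within the same library. The log2 ratio of Cnn1 to Cnn2 was -4.01, -3.66 and -2.7 in siMnt and -1.42, -1.62 and -0.89 in siNTC. The groups did not overlap, with a difference of -2.15 between the means (exact two-sided permutation p = 0.1, which 3 libraries against 3 cannot go below). The ratio of Tagln to Tagln2 was -7.25, -6.83 and -7.16 in siMnt and -3.55, -3 and -6.53 in siNTC, a difference of -2.72 (exact permutation p = 0.1). The ratio of Acta2 to Actb was -10.25, -10.04 and -10.55 in siMnt and -8.71, -7.88 and -11.68 in siNTC, a difference of -0.86 (exact permutation p = 0.5). Here siNTC replicate 3 lay below all siMnt libraries. Without that library the differences were -1.94, -3.8 and -1.99. Without siNTC replicate 2, in contrast, the Acta2 to Actb ratio differed little between the groups.

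The cytoplasmic actins and broad paralogs included the most abundant members, and none of the 5 passed. Per kilobase of the longest protein-coding transcript, Actg1 was first, at 32694 in siMnt and 45727 in siNTC, and Actb next, at 27696 and 32258. Cnn1, Tagln, Acta2 and Actg2 stood at 186, 57.9, 20.7 and 6.44 per kilobase in siMnt and at 938, 810.1, 79.3 and 50.4 in siNTC. The smooth muscle actins thus stayed far below the cytoplasmic ones in both groups. By library Actb, beta actin, was at 56539.5, 50123 and 52867 in siMnt and 65931, 74275 and 45602 in siNTC (log2 fold change -0.19 ± 0.21, adjusted p = 0.623). Actg1, cytoplasmic gamma actin, was at 60759.6, 64714 and 65982 in siMnt and 88196, 107850 and 71731 in siNTC (-0.47 ± 0.19, adjusted p = 0.2; 0.0388 without siNTC replicate 3). The groups overlapped for Actb and not for Actg1. Of the 50-base windows of the Actg1 transcript 56.7% also occur in transcripts of other genes, among them Actg-ps1, and 14.2% of those of Actb, so reads may be split between copies. Transgelin 2 (Tagln2), calponin 2 (Cnn2) and calponin 3 (Cnn3), with log2 fold changes of -0.31, -0.27 and -0.22, did not pass (adjusted p = 0.319, 0.482 and 0.301). Cnn2 passed without siNTC replicate 3 (adjusted p = 0.0271).

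Tropomyosins lie along the actin filament and set which myosins and severing proteins reach it; caldesmon binds with them. Tpm1, induced by TGF-beta in epithelial cells, was at 26035, 24562 and 23999 in siMnt and at 49105, 48679 and 26814 in siNTC. The siMnt libraries were all lower, with siNTC replicate 3 just above them. The log2 fold change was -0.69 ± 0.24 (adjusted p = 0.138; 0.0374 with the block; 0.00297 without siNTC replicate 3). Caldesmon, Cald1, was at 37696, 30061 and 32935 in siMnt and at 59893, 51772 and 38466 in siNTC, also without overlap (-0.56 ± 0.20, adjusted p = 0.144; 0.0489 with the block; 0.0197 without siNTC replicate 3). Tpm3 and Tpm4 had log2 fold changes of -0.29 each and did not pass (adjusted p = 0.178 and 0.29). Tpm2, the muscle-type beta form, stood at 7.57, 13.1 and 9.8 in siMnt and at 4.37, 5.54 and 4.52 in siNTC and was not tested.

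Of the myosin genes none passed, and the regulatory light chain Myl12a had the most negative log2 fold change. It was at 14787, 15649 and 14275 in siMnt and at 26439, 33194 and 16773 in siNTC, and the groups did not overlap. The log2 fold change was -0.72 ± 0.23 (adjusted p = 0.12; 0.0257 with the block; 0.00423 without siNTC replicate 3). Its close neighbour in sequence, Myl12b, was at 14508 ± 356 in siMnt and 17046 ± 2298 in siNTC (SD, n = 3 each; -0.22 ± 0.14, adjusted p = 0.356). Of the 50-base windows of the Myl12a transcript 29.6% occur in Myl12b, Gm2805 or Gm6517, so the split of reads between them is uncertain. The essential light chain Myl6 (-0.31, adjusted p = 0.375) and the non-muscle heavy chain Myh9 (-0.16, adjusted p = 0.663) did not pass. Myh9 was at 65276, 57043 and 64948 in siMnt and 84216, 58036 and 68479.9 in siNTC, the highest heavy chain value being in siNTC replicate 1. Mylk, the kinase that switches myosin on by phosphorylating its light chain, had a positive log2 fold change. It was at 2605, 2445 and 3492 in siMnt and at 1648, 1154 and 3675 in siNTC, so siNTC replicate 3 was again beyond the siMnt libraries (0.56 ± 0.38, adjusted p = 0.413; 1.03 and 0.0156 without siNTC replicate 3; 0.19 and 0.755 without siNTC replicate 2). The smooth muscle light chain Myl9 was at 1.23 to 3.58 in siMnt and 1.75 to 5.54 in siNTC and was not tested.

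The cross-linking proteins had fold changes of both signs, and none of the 6 passed. Alpha-actinin 1 (Actn1), which bundles stress fibres and anchors them at adhesions, was at 12220.3, 10739 and 12225 in siMnt and at 28915, 20362 and 16211 in siNTC, without overlap. Its log2 fold change was -0.86 ± 0.21 (adjusted p = 0.0621; 0.0134 with the block; 0.00691 without siNTC replicate 3). The paralog Actn4 was at 16646 ± 471 in siMnt and 16446 ± 1747 in siNTC (SD, n = 3 each; 0.02 ± 0.13, adjusted p = 0.94). Lima1, also called EPLIN, which stabilises filaments and links the cadherin complex to actin, was at 5489, 4908 and 5136 in siMnt and at 2910.2, 2525 and 4065 in siNTC. All siMnt libraries were higher (0.74 ± 0.18, adjusted p = 0.0601; 0.0128 with the block; 0.00318 without siNTC replicate 3). Filamin A (Flna) had a log2 fold change of -0.36 (adjusted p = 0.234) and the muscle filamin Flnc, at 32.2 to 33.5 in siMnt and 15.5 to 31.4 in siNTC, one of 0.65 (adjusted p = 0.293). Villin (Vil1), the bundling protein of epithelial microvilli, was at 2396, 2361 and 2442 in siMnt and at 1751, 2144 and 2365 in siNTC. The groups overlapped slightly (0.21 ± 0.13, adjusted p = 0.378).

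Of the adhesion and LIM proteins Pdlim7 fell and Pdlim2 rose. Pdlim7, also called enigma, a stress fibre adaptor that binds tropomyosin, was at 1306, 1425 and 1752 in siMnt and at 3409, 3216 and 2187 in siNTC. Every siMnt library was lower (log2 fold change -0.96 ± 0.19, adjusted p = 0.0414; 0.0135 with the block), and the difference within replicate numbers 1, 2 and 3 was -1.38, -1.17 and -0.32. It passed without siNTC replicate 3 (adjusted p = 0.00291) but in none of the other fits that left out 1 library, where adjusted p was 0.0679 without siMnt replicate 3, 0.0728 without siNTC replicate 2, 0.155 without siNTC replicate 1, 0.167 without siMnt replicate 2 and 0.194 without siMnt replicate 1. Pdlim2, also called mystique, which binds alpha-actinin and directs NF-kappa-B p65 to degradation, was at 729.8, 714 and 680.1 in siMnt and at 403, 457 and 451 in siNTC. The groups were far apart compared with their spread, and siNTC replicate 3 stood with its own group. Pdlim2 rose (0.70 ± 0.13, adjusted p = 0.0326; 0.0115 with the block), by 0.86, 0.64 and 0.59 within replicate numbers 1, 2 and 3. Without siMnt replicate 1, 2 or 3 or siNTC replicate 1 the adjusted p was 0.182, 0.154, 0.0877 and 0.131.

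Zyxin (Zyx), a LIM protein that moves from adhesions to strained fibres, was at 4064, 5485 and 5344 in siMnt and at 8198, 8388 and 6120.2 in siNTC. The groups did not overlap (log2 fold change -0.61 ± 0.17, adjusted p = 0.0871; 0.0313 with the block; 0.0178 without siNTC replicate 3). The integrin linkers vinculin (Vcl) and talin 1 (Tln1) had log2 fold changes of 0.03 and -0.19 and overlapping groups (adjusted p = 0.942 and 0.475). Pdlim5 and the LIM-only coactivator Fhl2 did not pass (-0.31 and 0.12, adjusted p = 0.404 and 0.807), although Pdlim5 did without siNTC replicate 3 (-0.55, adjusted p = 0.0355), while without siNTC replicate 2 it was at -0.11 (adjusted p = 0.719). Pdlim1 was at 2.45 to 7.57 in siMnt and 0 to 3.49 in siNTC, and the actin nucleator Lmod1 at 2.16 to 5.97 in siMnt and 0 to 5.54 in siNTC; neither was tested.

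Srf, the transcription factor that many members answer to, was at 1200.2, 1222 and 1118 in siMnt and at 1442, 1511 and 1036 in siNTC. The groups overlapped and the log2 fold change was -0.15 ± 0.16 (adjusted p = 0.608; 0.118 without siNTC replicate 3).

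**Figure D3:**
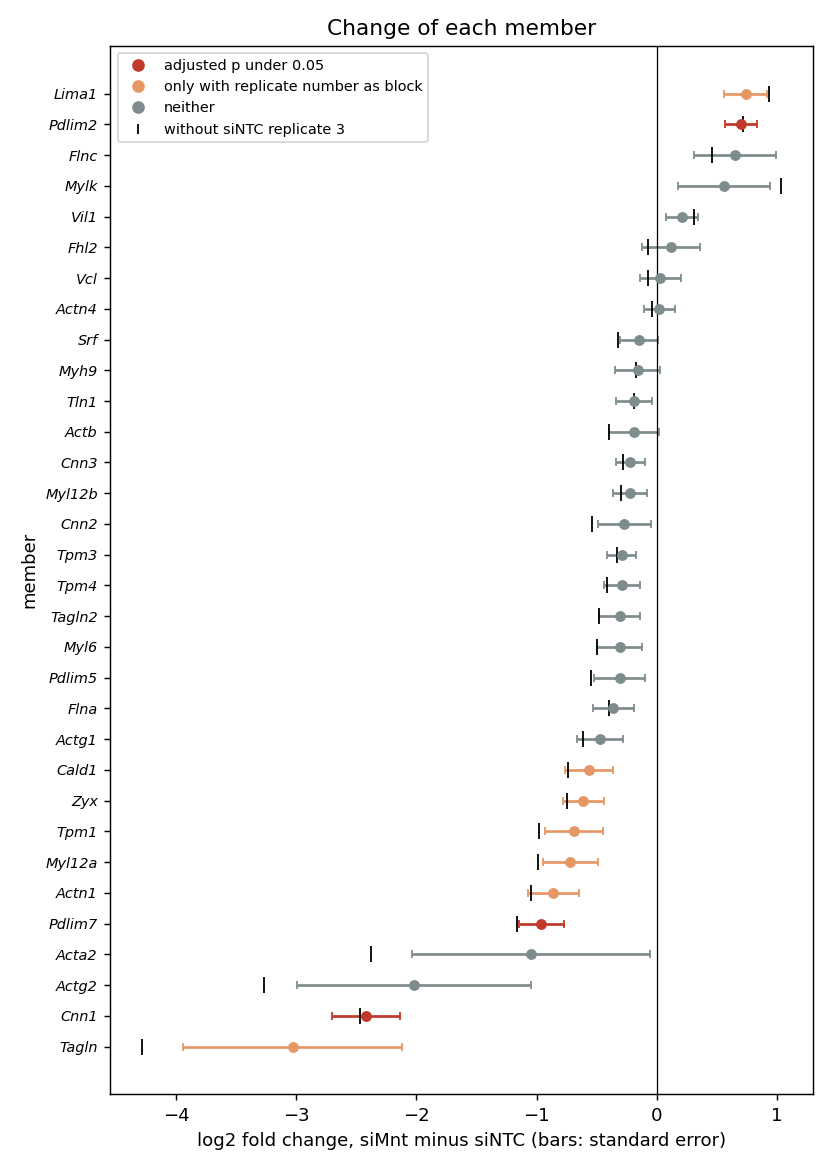
Log2 fold change of each tested member, siMnt minus siNTC, with its standard error; colour gives whether it passed, passed only with the replicate number as a block, or neither, and black ticks give the value without siNTC replicate 3. Cnn1 (-2.42) keeps its position when that library is left out (-2.47), whereas Tagln goes to -4.28 and Acta2 to -2.38.

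The members spread more over the siNTC libraries, which include siNTC replicate 3, than over the siMnt libraries. The median coefficient of variation of the members was 5.29% over the siMnt libraries and 22% over the siNTC libraries, beside 9.34% and 17.8% over all tested genes. In 31 of 32 members the siNTC spread was the larger, beside 79.1% of all tested genes. Cnn1 was the exception, at 45.2% in siMnt and 6.28% in siNTC. Acta2, Actg2 and Tagln were at 16.1%, 24.8% and 18.1% in siMnt and at 93.6%, 97.6% and 88.3% in siNTC. In siNTC replicate 3 these 3 genes were at 12.9, 5.81 and 132. In siNTC replicates 1 and 2 they were at 156 and 315, 59.4 and 136, and 1331 and 2414. That library was the lowest siNTC library in 25 of 32 members, beside 35.4% of all tested genes. The spread without it was not computed, and its part in the difference was not tested.

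**Figure D4:**
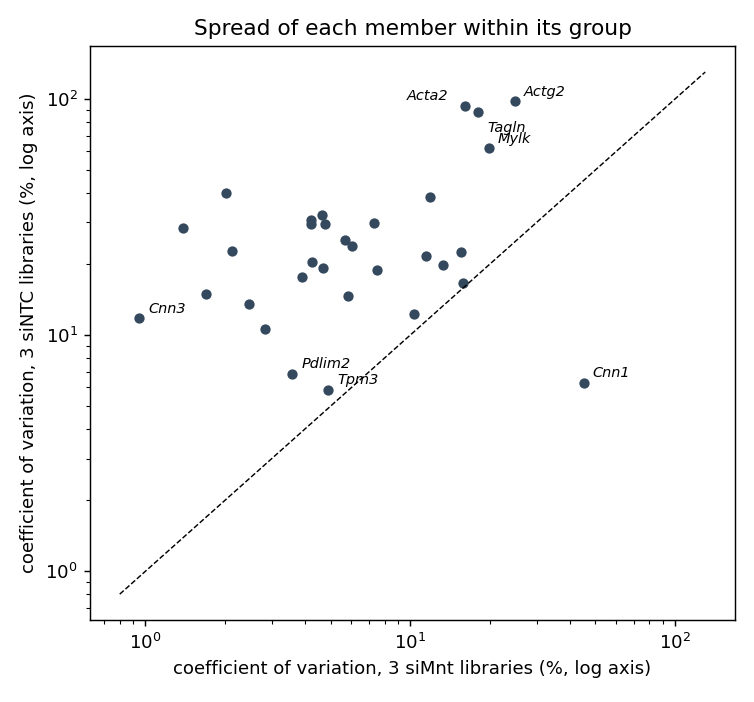
Coefficient of variation of each tested member over the 3 siMnt libraries (x) and the 3 siNTC libraries (y), both in percent on log axes, with the line of equality dashed. All members but Cnn1 (45.2% in siMnt, 6.28% in siNTC) lie above the line. The siNTC spread includes siNTC replicate 3, the lowest siNTC library in 25 of 32 members (beside 35.4% of all tested genes).

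The wider actin machinery was described with further lists of the same pathway, whose counts stand beside the same shares of all tested genes as the members: 2.56% higher and 1.37% lower, 9.33% and 6.56% with the block, and 9.51% and 6.5% without siNTC replicate 3. Among 18 focal adhesion genes 1 rose, the vinexin gene Sorbs3, whose product binds vinculin (118, 111 and 98 in siMnt and 49.8, 35.4 and 49.1 in siNTC; 1.28 ± 0.24, adjusted p = 0.0334), and 0 fell. With the block 2 of these were higher and 1 lower, and without siNTC replicate 3, 2 and 2. Of 18 genes of Arp2/3 and branched nucleation limma called 0 (3 at an unadjusted p under 0.05), also 0 with the block and without siNTC replicate 3, the smallest p being that of the N-WASP gene Wasl (0.33 ± 0.11, adjusted p = 0.127). Sorbs3 passed only without siNTC replicate 3 (0.0116) among the fits that left out 1 library.

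Of 18 actin monomer binding, capping and severing genes 1 rose and 1 fell, both just inside the threshold. The severing protein gelsolin, Gsn, was at 19718, 18953 and 18219 in siMnt and 12605, 12123 and 14166 in siNTC (0.55 ± 0.12, adjusted p = 0.0493), and the monomer buffer thymosin beta 4, Tmsb4x, at 16453, 13696 and 15454 in siMnt and 31023, 38104 and 21554 in siNTC (-0.96 ± 0.21, adjusted p = 0.0493). Neither pair of groups overlapped. With the block, and also without siNTC replicate 3, 2 genes of this list were higher and 1 lower. Of 16 microvillus and cortical linker genes limma called 0 (6 at an unadjusted p under 0.05), with a median log2 fold change of 0.38; with the block 4 were higher and 2 lower, and without siNTC replicate 3, 8 and 2. The member of that list with the smallest p was the actin nucleator Cobl, at 1344, 1159 and 1385 in siMnt and 527, 486 and 985 in siNTC (1.03 ± 0.26, adjusted p = 0.0655; 0.00804 with the block). Of 17 other genes known as serum response factor targets 1 rose and 1 fell, with the block 4 were higher and 5 lower, and without siNTC replicate 3, 1 and 5. The LIM protein Fhl1 rose, with 875, 681 and 658 in siMnt against 72.5, 156 and 291 in siNTC (2.29 ± 0.44, adjusted p = 0.0356). Filip1l, a filamin A interacting protein, fell, with 2758, 3013 and 3082 in siMnt against 8965, 10648 and 4543 in siNTC (-1.36 ± 0.28, adjusted p = 0.0434). Among the fits that left out 1 library Gsn, Tmsb4x, Fhl1 and Filip1l passed only without siNTC replicate 3 (adjusted p = 0.0144, 0.00261, 0.00147 and 0.000363).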

How the data were processed

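Per the labels, RNA was extracted with Trizol and libraries followed standard Illumina protocols; strand is not stated. Per the submitters' processing notes, TopHat2 2.1.0, DESeq2 and the build mm9 were used. How reads were counted, with which annotation and filters, and what was done with multiply mapping reads is not stated. The authors' deposited table holds normalised signal values at or above 0. Judged by its values, each entry is a read count divided by 1 factor per library: 99.74% of values above 0 lay within 0.05 of a whole number of reads.

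Groups and replicate numbers came from the titles. Members and lists were chosen with earlier results of these data known. After leaving out genes whose mean was under 10, log2(value + 1) was computed and limma 3.58.1 (R 4.3.3, empirical Bayes with trend) was fitted on all 6 libraries. Every member was named; of each further list, the genes that passed or else the one with the smallest p. The result of 1 further list is not reported here. Same-numbered libraries deviated together (correlations 0.28, 0.5 and 0.35, other pairs -0.38 to 0.03). Deviations were taken from each group's own mean, so a high value for 1 pair lowers the others. The libraries were taken as paired by number from these same data and the titles, which name no shared culture or batch. The blocked fit rests on that reading. Alternatives were other pseudocounts, filters, scalings, edgeR 4.0.16 and DESeq2 1.42.0 on recovered reads, the block, and leaving out each library; a GC and length correction (GENCODE M21, 98.8% of tested genes) was added after seeing the data. Lengths and shared windows came from that annotation's transcripts, which are of another build than mm9. Fits were tested on simulated counts. Tables used Python 3.11.15 and pandas 2.3.3. Depth limits the low members Acta2, Actg2 and Flnc most.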

Additional observations from a re-analysis of the deposited data

How the results depend on the processing

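The 3 member calls (Cnn1, Pdlim7, Pdlim2) were 3 under pseudocounts of 0.5 and 5, no filter, a mean of at least 50, both rescalings and edgeR, and 2 (Cnn1 and Pdlim2) with no trend in the prior variance. The count was 11 with DESeq2, 10 with the replicate block, 5 with the GC content and length correction and 11 with that correction and the block, and 0 to 16 when 1 library was left out. Over all tested genes 494 passed, against 322 with a mean of at least 50, 306 with no trend, 1457 with DESeq2, 1998 with the block, 1027 with the correction, 2395 with the correction and the block, and 0 to 2012 with 1 library left out. Over all 6 further lists, 1 of which is not described, 6 genes passed, against 3, 2, 17, 25, 13 and 30 under those settings in the same order, and 0 to 28 with 1 library left out. The members' median stayed between -0.41 and -0.14 over all settings. Direction was not stable for 3 members near 0. Actn4 was 0.02, lay between -0.04 and 0.11 with 1 library left out, being below 0 without siMnt replicate 1, siNTC replicate 2 or siNTC replicate 3, and turned to -0.04 with the correction (with or without the block). Vcl was 0.03, lay between -0.07 and 0.19 with 1 library left out, being below 0 without the same 3 libraries, and turned to -0.02 with the correction (with or without the block). Fhl2 was 0.12 and lay between -0.07 (without siNTC replicate 3) and 0.42. The paralog ratios kept their direction under both pseudocounts and with each library left out. The lowest difference was -3.8 (Tagln to Tagln2 without siNTC replicate 3) and the highest -0.09 (Acta2 to Actb without siNTC replicate 2). With the block, calls were gained for Actn1, Tagln, Tpm1, Myl12a, Zyx, Cald1, Lima1, Mnt, Cobl, Acta1, Egr1, Ier2, Ccn2, Ankrd1, Itga5, Lamb3, Krt17, Cdh5, Synm and Cdh1, and it changed no other call among the single genes tested here by name. The cause of these shifts was not tested. Depth limits most the members with few reads, Actg2, Flnc and Acta2.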

Other observations

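Some serum-responsive genes of the further lists, chosen after their values were seen, differed widely between replicate numbers in both groups. The immediate early factor Egr1 was at 1157, 2571 and 234 in siMnt replicates 1, 2 and 3 and at 334, 2070.2 and 153 in siNTC. Ier2 was at 1452, 1805 and 746 in siMnt and at 912, 1483 and 565 in siNTC. The matricellular gene Ccn2, induced by TGF-beta and by Yap, was at 15721, 29975 and 9562 in siMnt and at 40085, 68310.2 and 11868 in siNTC, and the Yap and Srf target Ankrd1 at 10221, 19336 and 8999 in siMnt and at 39194, 82946 and 16606 in siNTC. In all 4 genes the library numbered 2 was highest and the one numbered 3 lowest in both groups. None passed by limma without the block (adjusted p = 0.653, 0.539, 0.405 and 0.122), and all 4 passed with it, Egr1 and Ier2 higher in siMnt and Ccn2 and Ankrd1 lower (adjusted p = 0.0403, 0.0384, 0.0169 and 0.00438). In the same list Fos, Junb, Ccn1 and Itga5 had this order of libraries too. With the block Fos, Junb and Ccn1 did not pass (adjusted p = 0.223, 0.676 and 0.169). Itga5 did, lower in siMnt (adjusted p = 0.0288).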
